A study of Homo sapiens with 2 samples.

Results

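The genes STMN1, STMN2, STMN3, STMN4, DCX, MAPT, MAP2, MAP1B, TUBB3 and GAP43, which act on microtubules and in growth cones of neurons, were examined in H9 human embryonic stem cells. The 10 genes were taken by name, with earlier results of these data known, out of 22439 genes that could be named on the array. Every probe whose RefSeq transcript belongs to one of them was kept. This gave 15 of the 58201 probes, each printed as 1 spot. H9 is an established human embryonic stem cell line, and 2 groups of its cells were compared. The study describes both substates in cultures on Matrigel, a basement membrane extract, in the defined medium TeSR-E8. One group was substate 1 at passage 35, which the study defined by typical colonies that stained strongly for R-10G, a keratan sulphate epitope of the cell surface, and hardly for vimentin. The other was substate 2 at passage 50, defined by looser colonies with weaker epitope staining and with vimentin. How the cells of either substate were separated for the RNA is not given in the sources used here. Each substate had 1 array, so no difference below has a replicate check or a p-value, and passage and substate cannot be told apart. Passage 35 is also the passage at which the study moved H9 cells from vitronectin to Matrigel. The matrix of the cells on each array is not settled here, and a difference in matrix could not be told apart from substate either.

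Microtubules are hollow polymers of alpha and beta tubulin that grow and shrink at their ends, and a growing axon is steered by the growth cone at its tip, where dynamic microtubules meet actin. Stathmins bind free tubulin dimers and promote shrinkage, whereas doublecortin and the structural microtubule-associated proteins bind along the polymer and stabilise it. Many of these genes are used as markers of young neurons, although STMN1 and several tubulins are also expressed in dividing cells that are not neurons.

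STMN2, a stathmin of growing neurons that is known for its role in axon regrowth, differed most between the substates among these genes, and MAP2, a microtubule-associated protein of dendrites, came next. STMN2 was 2.74-fold higher and MAP2 2.04-fold higher in substate 2. All 9 genes that could be measured on both arrays had a higher normalised signal in substate 2, by 0.17 to 1.45 on the log2 scale with a median of 0.43, beside a median of 0.08 over the 16001 genes measured on both arrays, of which 59.8% lay above 0. No member was lower by either rule of size. In bulk RNA such as this, a larger number of cells of a type and more RNA per cell cannot be told apart.

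Promoters of 4 members are shown first, so that their starts can be set side by side. A link between the starts and the differences was not tested. RefSeq's table for GRCh38.p14 held 15 transcription starts for 7 of the genes, and STMN2, STMN4 and MAPT had no entry there. The 250 bases before the start are printed below, 5′ to 3′ on the strand of the gene, for STMN3 and for 1 of 3 starts of MAP2 as the members with the largest differences that had an entry, for 1 of 2 starts of TUBB3 as the neuronal tubulin, and for GAP43 as the member with the smallest difference. Capitals mark the GC box GGGCGG, a motif bound by Sp-family factors, which was searched on both strands together with 4 other motifs. The windows lie at chr20:63652767-63653016 (minus strand) for STMN3, chr2:209579357-209579606 (plus strand) for MAP2, chr16:89923092-89923341 (plus strand) for TUBB3 and chr3:115623260-115623509 (plus strand) for GAP43.
STMN3: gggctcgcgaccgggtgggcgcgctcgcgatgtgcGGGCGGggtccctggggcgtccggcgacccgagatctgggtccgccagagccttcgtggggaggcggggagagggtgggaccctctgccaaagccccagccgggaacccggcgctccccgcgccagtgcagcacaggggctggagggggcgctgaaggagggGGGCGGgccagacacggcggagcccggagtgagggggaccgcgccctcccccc
MAP2: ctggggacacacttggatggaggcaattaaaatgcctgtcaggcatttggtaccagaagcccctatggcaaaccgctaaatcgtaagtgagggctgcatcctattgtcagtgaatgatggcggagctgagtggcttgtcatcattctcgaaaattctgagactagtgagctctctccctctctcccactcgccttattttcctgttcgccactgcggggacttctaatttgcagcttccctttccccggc
TUBB3: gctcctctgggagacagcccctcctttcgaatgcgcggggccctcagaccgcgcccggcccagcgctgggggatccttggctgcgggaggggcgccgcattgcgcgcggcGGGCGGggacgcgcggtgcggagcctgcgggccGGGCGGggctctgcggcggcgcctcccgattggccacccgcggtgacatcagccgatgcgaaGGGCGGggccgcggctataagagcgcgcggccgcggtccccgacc
GAP43: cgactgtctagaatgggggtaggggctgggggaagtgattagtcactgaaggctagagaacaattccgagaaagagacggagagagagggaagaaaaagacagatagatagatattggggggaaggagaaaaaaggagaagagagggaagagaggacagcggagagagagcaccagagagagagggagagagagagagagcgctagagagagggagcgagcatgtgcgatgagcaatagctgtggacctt

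The STMN3 window held 2 GC boxes and the printed TUBB3 window 3, whereas the MAP2 and GAP43 windows held none. The TUBB3 start shown was picked after its motifs had been counted, and the other start of TUBB3 held no GC box, nor did any of the 3 starts of MAP2. The GC content over all 15 member starts ran from 37.6% to 78.0%, around a median of 58.0% for the 35114 promoters in the table. The GC box (GGGCGG or CCGCCC) was found at 6 of 15 member starts and in 42.6% of all promoters. The E-box (CACCTG or CAGGTG) was found at 2 of 15 starts, 1 of STMN1 and 1 of DCX, and in 17.5% of all promoters. The CCAAT box (CCAAT or ATTGG) was found at 5 of 15 starts against 32.0% of all, and the TATA box (TATAAA or TTTATA) at 3 of 15, those of MAP1B and 1 of DCX, against 10.7%. The left part of the RE1 element (TTCAGCACC or GGTGCTGAA), the motif of the repressor REST that acts on neuronal genes, was at 0 of 15 member starts and in 0.288% of all promoters. At so low a share, 0 of 15 starts is no sign that the members lack the element. Hits of different motifs did not overlap at the member starts. A gene can have several starts with overlapping windows, so the 15 starts are not independent, and a match is a description of letters only.

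The signals behind these differences were read in array intensity units, and the error given after each signal is the error that the scanner software assigned to that spot. It belongs to 1 spot on 1 array and says nothing of the cells, the RNA or the labelling. For bright probes it was nearly a fixed share of the signal and not a spread measured for each spot. On the log2 scale it was 0.144 on both arrays for TUBB3, MAP2 and the bright STMN1 probe. Spots of probes that were printed several times agreed more closely than this error, with a median log2 SD of 0.046 over 293 probes in substate 1 and of 0.052 over 291 probes in substate 2. The signals were then divided by each array's 75th percentile, which was 313.7 for substate 1 and 275.4 for substate 2, so that an equal raw signal counts as higher in substate 2. Differences are of normalised log2 signal, substate 2 minus substate 1. Of the 60901 spots that were not controls, 57.4% were well above background in substate 1 and 54.7% in substate 2, and none was saturated. Among the member probes 13 were well above background on both arrays, 1 of STMN1 was so in substate 1 only, and the probe of STMN4 was so on neither.

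**Figure D1:**
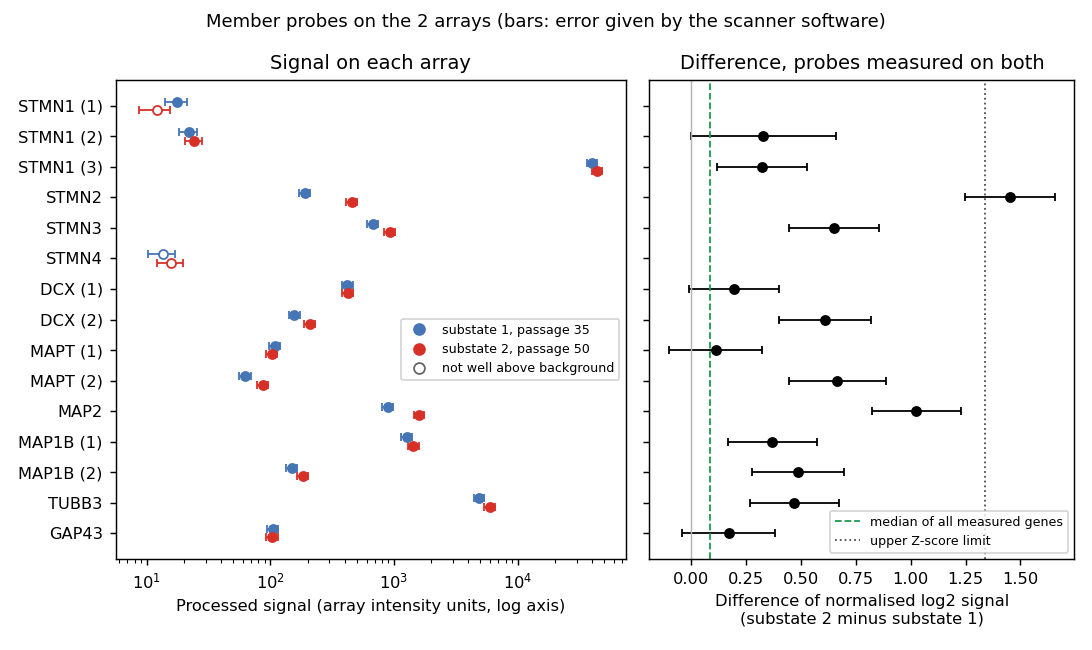
Signal of the 15 member probes on the 2 arrays (left, array intensity units on a log axis, open circles for spots not well above background) and the difference of normalised log2 signal, substate 2 minus substate 1, for the 13 probes measured on both (right). Bars are the scanner software's error for 1 spot. All 13 differences lie above the median of all measured genes (0.08), and that of STMN2 alone lies past the upper Z-score limit (1.34).

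Among the stathmins the largest difference was that of STMN2. Its probe (NM_007029, chromosome 8) read 190.6 ± 19.4 in substate 1 and 458 ± 46.0 in substate 2, so the raw signals were apart by more than their errors. After scaling, the normalised log2 signal was -0.72 in substate 1 and 0.73 in substate 2, a difference of 1.45 ± 0.21. The study's measure of size was a Z-score, which gives how many SDs of all probe differences a probe lies from their mean, with limits of 2 and -2. STMN2 had a Z-score of 2.18 and was the 1 member probe past the upper limit, which lay at 2.53-fold higher. Over all probes 3.03% were past the upper limit and 3.30% past the lower limit, but many of those were near background. Among probes well above background on both arrays, as STMN2 was, 0.355% were past the upper limit. Of the genes measured on both arrays 40 had a larger difference than STMN2.

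STMN3, another neuronal stathmin, read 674 ± 67.5 in substate 1 and 929 ± 93.0 in substate 2 (NM_015894, chromosome 20). It was therefore brighter in substate 2, by 0.65 ± 0.20 after scaling or 1.57-fold, with a Z-score of 0.91 that was inside the limits. STMN1, the stathmin of dividing cells, had 3 probes on chromosome 1. The bright probe (NM_203401) read 40139 ± 4014 and 44016 ± 4402, and the raw signals overlapped within their errors. Its difference after scaling was 0.32 ± 0.20. Of the dim pair, both assigned to NM_001145454, one read 22.1 ± 3.64 and 24.3 ± 3.88 and differed by 0.33 ± 0.33. The other read 17.7 ± 3.48 in substate 1 and 12.1 ± 3.43 in substate 2, where it was not well above background. It was at least 1.03-fold lower in substate 2, the only member probe that leaned that way, and with it the mean STMN1 difference was 0.10. The STMN4 probe (NM_030795, chromosome 8), for a stathmin of the nervous system, read 13.6 ± 3.38 and 15.8 ± 3.73 and was not well above background on either array, so no fold is given.

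The stathmins therefore did not differ alike. The difference of STMN2 exceeded that of STMN1 by 1.13 ± 0.28 and that of STMN3 by 0.80 ± 0.29, where the errors are again those of the scanner software for single spots. The pair of STMN1 probes measured on both arrays lay 0.01 apart in difference, although their brightness differed widely. Among the 3414 genes with exactly 2 measured probes, 96.9% had probes at least as far apart. The difference of the dim probe had an error of 0.33, larger than this distance, so the closeness is no sign that the probes agree. The remaining STMN1 probe leaned the other way.

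Among the microtubule-associated proteins the largest difference was that of MAP2. Its probe (NM_002374, chromosome 2) read 896 ± 89.7 in substate 1 and 1602 ± 160.3 in substate 2, apart by more than the errors. The normalised log2 signal was 1.51 in substate 1 and 2.54 in substate 2, a difference of 1.03 ± 0.20. Its Z-score of 1.51 was inside the limits, and 140 measured genes had a larger difference. By the second rule of size, 2-fold or more where at least 1 array was well above background, STMN2 and MAP2 were the members called, both higher. The background of this rule was 1.55% of 33166 probes higher and 1.67% lower, or by gene 1.77% of 16965 genes higher and 1.60% lower, beside 2 of 9 member genes higher and 0 lower. The call of MAP2 rested on a margin smaller than its error, and its difference fell below 2-fold under 4 of the other settings, to between 0.91 and 0.97.

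MAP1B, a microtubule-associated protein of growing axons, had a pair of probes for NM_005909 on chromosome 5. One read 1268 ± 126.9 and 1438 ± 143.8, and the other 149.8 ± 15.4 and 184.2 ± 18.8. The raw signals of the first overlapped within their errors and those of the second lay just apart. After scaling the differences were 0.37 ± 0.20 and 0.49 ± 0.21, and they lay 0.12 apart, less than the median distance of 0.15 between probes of a gene. The difference of MAP2 exceeded that of MAP1B by 0.60 ± 0.25.

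For doublecortin (DCX), mutated in X-linked lissencephaly and expressed in migrating neurons, and for MAPT, which encodes the axonal protein tau, the probes of the same gene disagreed in size. The first DCX probe (NM_000555, X chromosome) read 420.7 ± 42.2 and 422.1 ± 42.4, so its difference of 0.19 ± 0.20 was close to what the scaling adds to an equal signal. The second DCX probe (NM_001195553) read 156.7 ± 16.0 and 209.8 ± 21.4, a difference of 0.61 ± 0.21 or 1.52-fold. The first MAPT probe (NM_001123066, chromosome 17) read 109.2 ± 11.4 in substate 1 and 103.4 ± 10.9 in substate 2, which overlapped, with a difference of 0.11 ± 0.21 after scaling. The second MAPT probe (NM_016835) read 62.5 ± 6.90 and 87.0 ± 9.22, which was brighter in substate 2 by 0.67 ± 0.22 or 1.59-fold. The probes of DCX lay 0.42 apart and those of MAPT 0.56 apart. Among genes with exactly 2 measured probes 14.5% and 7.67% had probes at least as far apart. With the brightest probe of each gene in place of the mean, the difference fell from 0.40 to 0.19 for DCX and from 0.39 to 0.11 for MAPT. The probes are assigned to different transcripts of their genes, but where on the transcript each probe lies was not used here, so differences between transcripts and between probes cannot be told apart.

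TUBB3, the beta tubulin of neurons and a common marker of early neuronal differentiation, read 4892 ± 489 in substate 1 and 5943 ± 594 in substate 2 (NM_006086, chromosome 16). The error ranges of these signals overlapped slightly, and the scaled difference of 0.47 ± 0.20 placed TUBB3 above 91.5% of the measured genes. The tubulin genes have closely related sequences, so a probe of one may bind transcripts of another, and the values of single tubulins are uncertain for that reason. GAP43, a membrane protein of the growth cone that takes part in axon outgrowth, read 105.2 ± 10.9 and 103.8 ± 10.8 (NM_002045, chromosome 3). These raw signals overlapped, and the scaled difference of 0.17 ± 0.21 was the smallest among the members, with 60.7% of the measured genes below it.

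Ordered by the mean difference of their measured probes, the members ran from STMN2 (1.45) and MAP2 (1.03) through STMN3 (0.65), TUBB3 (0.47), MAP1B (0.43), DCX (0.40), MAPT (0.39) and STMN1 (0.32) to GAP43 (0.17). The gap between STMN2 and MAP2 was 0.43 with an error of 0.29, and that between MAP2 and STMN3 was 0.37 with an error of 0.29. Every gap below that was smaller than its error, so the order from STMN3 to GAP43 was not resolved between neighbours. Of the 13 probe differences 7 were larger than 2 of their own errors and 9 were larger than 1. Without STMN2 the median of the remaining 8 genes was 0.41.

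**Figure D2:**
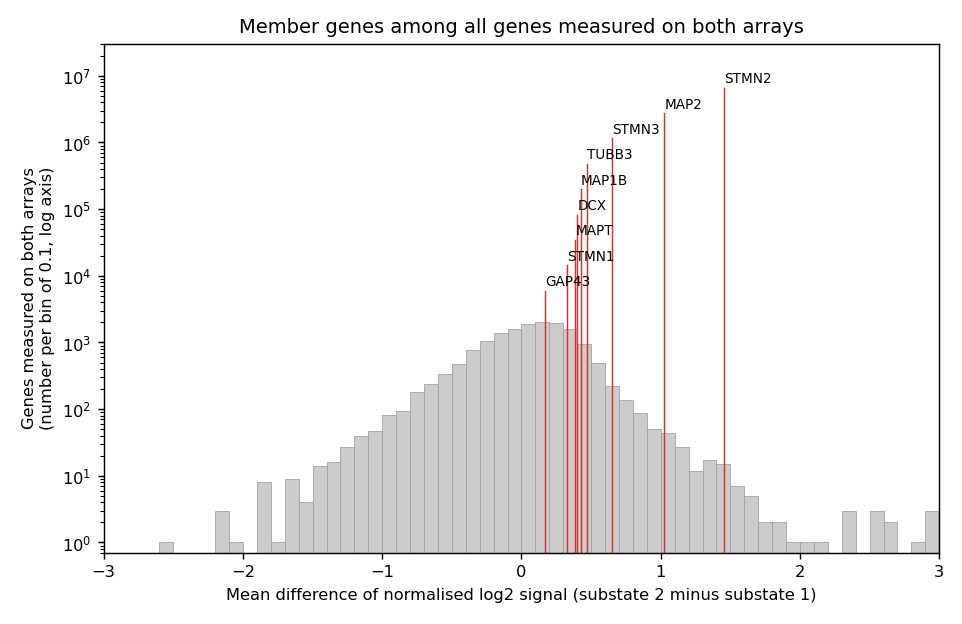
Number of genes in bins of the mean difference of normalised log2 signal, substate 2 minus substate 1, for the genes measured on both arrays (log axis, with 3 genes above 3 and 1 below -3 not drawn), and the 9 measured member genes as red lines, whose height carries no value. STMN2 lies above 99.7% of these genes and MAP2 above 99.1%, while GAP43 lies in the middle of the distribution.

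How far the scaling enters these values is seen in the plot of member differences by setting. Over the other scalings, normexp background correction, the choice of probe and the treatment of dim spots, every member difference stayed above 0. STMN2 ranged from 1.20 to 1.49 and was past 2-fold and past its Z-score limit in every setting. STMN3 ranged from 0.56 to 0.69, TUBB3 from 0.34 to 0.51 and GAP43 from 0.11 to 0.21. The median of all measured genes moved between 0.02 and 0.13 with the setting, and the median of the members exceeded it by 0.31 to 0.37 over the scalings and the background correction.

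**Figure D3:**
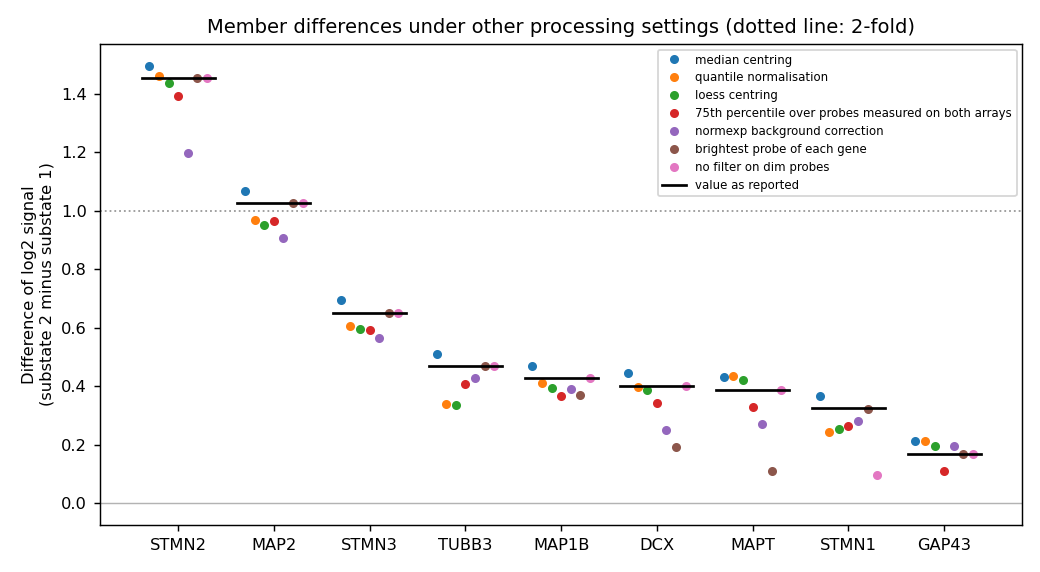
Difference of log2 signal, substate 2 minus substate 1, of the 9 measured member genes under 7 other processing settings (points) and as reported (black bars), with a dotted line at 2-fold. All points lie above 0, STMN2 lies above the line under every setting shown, and MAP2 falls below it under 4 settings.

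Other genes of the same systems were described by their counts beside all genes. Of 20 further tubulin genes 18 had a probe and 17 were measured on both arrays, and 15 of these lay above 0 and 13 above the median gene, with a median difference of 0.33. None was past 2-fold. The largest differences were those of TUBA1A (0.54), the main alpha tubulin of young neurons, and TUBB4B (0.49), and the smallest were those of TUBE1 (-0.40), an epsilon tubulin of centrioles, and TUBA3C (-0.10). TUBB1, the beta tubulin of platelets, was near background on both arrays. The tubulin median moved with the scaling, to 0.25 after quantile normalisation and 0.22 after loess centring.

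Of 45 further microtubule-associated genes, which bind, sever, cap or modify microtubules, 41 were measured on both arrays. Here 29 lay above 0 but 22 above the median gene, and the list's median was 0.09 beside 0.08 for all genes. This median also moved with the scaling, to 0.0063 after quantile normalisation and 0.0012 after loess centring. The median of all measured genes was 0.046 and 0.035 under these settings, so the list's median then lay below it. MAP1A (0.82), a relative of MAP1B in mature neurons, and MAP6 (0.74), which stabilises neuronal microtubules against cold, had the largest differences, with 0.56 and 0.92 for the pair of MAP6 probes. MAP7 (-0.72), which recruits kinesin-1 and is known from epithelial cells, had the lowest difference, with -0.80 and -0.63 for its probes, followed by MAP9 (-0.53), a protein of the spindle. DCLK2, a kinase related to doublecortin, was at least 2.41-fold higher by 1 of its 2 probes, and MARK4, a kinase that phosphorylates tau, was at least 2.53-fold higher by 1 probe against differences of -0.21 and 0.11 for its other 2.

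Of 28 further growth cone genes 26 had a probe and 24 were measured on both arrays, 19 of them above 0 and 15 above the median gene, with a median of 0.21. FEZ1, a kinesin adaptor in axon outgrowth, was 2.80-fold higher in substate 2 with a difference of 1.49 past the Z-score limit, and NCAM1, a neural cell adhesion molecule, was 2.11-fold higher (1.08) by the 1 of its 3 probes that was measured. The lowest differences were those of SHTN1 (-0.41), or shootin 1, and KIF1A (-0.31), a motor of synaptic vesicle precursors. GPRIN3 and NRN1 were near background on both arrays.

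**Figure D4:**
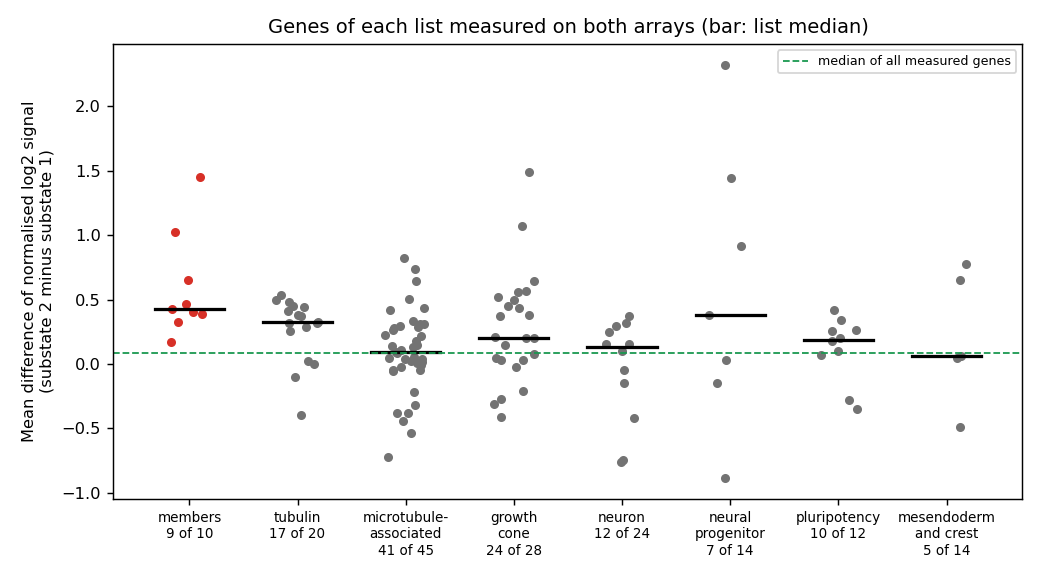
Mean difference of normalised log2 signal, substate 2 minus substate 1, of each gene measured on both arrays, by list (members in red, black bar for the list median, counts of measured genes under each name), with the median of all measured genes as a dashed line (0.08). All 9 members lie above the dashed line, and the other lists spread to both sides of it.

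Markers of cell types were read beside the members to set the labels against the arrays. Of 12 pluripotency genes 10 had a probe, and all 10 were well above background on both arrays, with a median difference of 0.19 and none past 2-fold. The summed signal of this list, each gene taken as the mean of its probes in units of the array's 75th percentile, was 1018 in substate 1 and 1061 in substate 2. NANOG (0.42) and UTF1 (0.34) had the highest differences, and PODXL (-0.35) and GDF3 (-0.28) the lowest. These genes were read for the label of an embryonic stem cell. They were not used to check the labels of the substates.

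Of 24 neuron genes outside the members, 14 were well above background in substate 1 and 12 in substate 2, and 12 were measured on both arrays. Their median difference was 0.13, with 7 above 0, and the summed signal of the list was 26.1 in substate 1 and 27.7 in substate 2. SYN1 (0.37) and SYP (0.32), which encode proteins of synaptic vesicles, had the highest differences. NHLH2 (-0.76), a transcription factor of developing neurons, and SYT1 (-0.74), the calcium sensor of vesicle release, had the lowest, and SYT1 was past 2-fold lower by 1 probe (-1.22) against -0.27 by the other. The genes near background on both arrays were ELAVL3, ELAVL4, NEUROD1, NEUROD2, NEUROG2, SLC17A6, GAD1, GAD2, ISL1 and MYT1L, among them RNA-binding proteins and transcription factors that define neurons.

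Of 14 genes of neural progenitors 7 were well above background in substate 1 and 10 in substate 2, and 7 were measured on both. Their median difference was 0.38 and the summed signal of the list was 66.2 in substate 1 and 71.3 in substate 2. LHX2 (2.32) and FABP7 (1.44), a transcription factor of the early forebrain and a lipid carrier of radial glia, were past 2-fold higher. DLK1 was past it by 1 probe (1.69) against 0.15 for the other, and POU3F2 was at least 13.3-fold higher by 1 probe. OTX1 (-0.89) and POU3F1 (-0.14) had the lowest differences, and PAX6, ZIC1, SIX3 and EMX2 were near background on both arrays. Among genes well above background on either array, 4 of 10 neural progenitor genes were past 2-fold higher beside 1.77% of all such genes, and 1 of 14 neuron genes was past 2-fold lower beside 1.60%, and their part in the member differences was not tested.

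Of 14 genes of mesendoderm, neural crest and mesenchyme 8 were near background on both arrays and 5 were measured on both, with a median difference of 0.06 and a summed signal of 8.23 in substate 1 and 7.66 in substate 2. FOXA2 (0.77) and PDGFRA (0.65) had the highest differences, and COL1A1 (-0.49) and FOXD3 (0.05) the lowest.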

How the data were processed

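RNA of H9 cells, 1 array for each of 2 substates, was labelled with Cy3 and hybridised to single-colour Agilent expression arrays. The authors deposited the scanner output, in which each spot has a background-subtracted intensity, an error of that intensity and flags, made per the file headers with Feature Extraction 11.5.1.1 (protocol GE1_1105_Oct12). The series matrix they deposited holds log2 values, with signals under 1 set to 1 and a 75th percentile shift in GeneSpring GX per their methods. Its column medians were -3.56 for substate 1 and -3.61 for substate 2. The log2 values computed here from the intensity differed from it by at most 0.0065, so its scale, centring and direction were settled.

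Here a floor of 1, which changed 0 spots, was applied to the intensity. After the log2 step, spots flagged as outliers were dropped and replicate spots averaged, and every array was shifted so that the 75th percentile of its non-control probes was 0. A probe counted as measured where more of its spots than not were flagged well above background. Z-scores ran over all 58201 probes (mean difference 0.07, SD 0.63). Where 1 array alone was well above background, the fold is a bound. It divides the bright value by the dim probe's own value or by that array's lowest signal well above background (14.5 in substate 1 and 15.0 in substate 2), whichever was larger. Gene values were means over the measured probes of a gene, with the errors of its probes taken as independent. Probes were named through their RefSeq accession, which matched for 31104 probes. Others, annotated by Ensembl or as long noncoding RNA, were not named here, so a gene can have further probes. The array design follows hg19, so gene coordinates are not given, and promoter coordinates are those of RefSeq's table.

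With 1 array per group no test between substates was made, and precision is limited by the number of arrays. The members and gene lists were chosen with earlier results of these data known. The genes named were all members, from each list the 2 highest and 2 lowest measured genes and any gene past 2-fold by a bound. Genes near background and the other genes past 2-fold were named after their values were seen. Normexp correction used the median signal and the median background of each spot, since the mean signal planned for it was not a column used here. The Z-score was tested on simulated differences, whose noise was narrower than the spread between these arrays (SD 0.63), and the bound rule on set values. The other steps were not tested in this way. Python 3.11.15 with pandas 2.3.3, numpy 2.4.6 and matplotlib 3.10.9, and R 4.3.3 with limma 3.58.1, were used.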

Additional observations from a re-analysis of the deposited data

How the results depend on the processing

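The settings varied were the scaling, by median centring, quantile normalisation, loess centring (span 0.3) and the 75th percentile over probes measured on both arrays, as well as normexp correction (offset 50), outlier spots kept, the deposited series matrix, other SDs and probe sets for the Z-score, a 1.5-fold limit, and other rules for the value of a gene and for dim probes. No member difference changed sign, nor did the median of the members or of the tubulin, microtubule-associated and growth cone lists, the results varied in this way. The number of member probes past the Z-score limits, 1 as reported, was 3 under normexp correction (STMN2, STMN3 and MAP2), 2 with an SD taken from the median absolute deviation and 2 with the Z-score over probes measured on both arrays (STMN2 and MAP2 in each), all higher. The share of all probes past the upper limit was 1.40% under normexp correction and 6.42% with the median absolute deviation. With the Z-score over probes measured on both arrays, 1.64% of those 29883 probes were past it. The number past 2-fold was 2 as reported. It was 1 (STMN2) after quantile normalisation, loess centring, the 75th percentile over probes measured on both arrays and normexp correction. Of the 33166 probes that the fold rule covers, 1.69%, 1.71%, 1.35% and 0.268% were past 2-fold upwards under these settings, in that order. The number of member probes was 5 at 1.5-fold (STMN2, MAPT, STMN3, MAP2 and DCX), which 6.03% of the same 33166 probes passed upwards. The median of the members lay between 0.37 and 0.47 over 11 alternatives and that of the growth cone list between 0.15 and 0.25 over 8. The tubulin median was 0.25 after quantile normalisation and 0.22 after loess centring, against 0.33, and the median of the microtubule-associated list was 0.0063 and 0.0012, against 0.09. The median of all measured genes moved too, to 0.046 after quantile normalisation and 0.035 after loess centring, against 0.08. The cause of these shifts was not tested. No paired analysis was possible because there was 1 array for each substate. Signals near 15 could not be told from background, which limits what can be said of STMN4 and of 1 STMN1 probe.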
